A study of Mus musculus with 18 samples.

Results

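The integrated stress response genes described here were Gdf15, Fgf21, Mthfd2, Shmt2, Phgdh, Psat1, Asns, Aldh18a1, Trib3 and Chac1. They were picked by symbol, with no threshold on their values, and all 10 were found among the 34714 genes of the expression table. The table came from RNA sequencing of the mouse heart in 4 groups that crossed genotype with surgery. C57 mice were wild type (WT) or carried a knockout (KO) of Kcp, which encodes kielin/chordin-like protein, a secreted modulator of BMP and TGF-beta signals, and the study asked what loss of that protein does to the pressure-overloaded heart. Each genotype underwent sham surgery or TAC, short for transverse aortic constriction, in which a band narrows the aorta and raises the load on the left ventricle.

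There were 4 WT sham, 5 WT TAC, 4 KO sham and 5 KO TAC libraries. The sources used here do not give age, the design of the knockout allele, the part of the heart or the time from surgery to collection. Nor do they say that the libraries of a group came from different animals, and the p-values measure only the spread between these samples, which may be technical. The library name of KO sham replicate 2 joins those of replicates 3 and 4, so that library was left out of every mean and test, which leaves 17 libraries. The library name of KO TAC replicate 4 also joins 2 names, and it was kept.

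The integrated stress response is a shared route by which cells answer amino acid shortage, unfolded protein in the endoplasmic reticulum, haem shortage, viral RNA and failing mitochondria. A family of kinases phosphorylates the initiation factor eIF2, general translation drops, and translation of the transcription factor ATF4 rises. ATF4 then drives genes for amino acid synthesis and uptake, tRNA charging and one-carbon metabolism, and the hormones GDF15 and FGF21 are secreted signals of the same response, known in heart muscle with mitochondrial disease or overload.

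ATF4 and its C/EBP partners bind a composite element whose core can be written TGATGNAA. This motif was searched on both strands in the 250 bases before each RefSeq transcription start on GRCm38.p6. It occurred before 1134 of 32851 starts, or 3.45%, and in 1056 of 27025 genes, or 3.91%. All 10 genes had an entry, with 12 starts between them, and 3 of the 10 held a match: Asns, Chac1 and Fgf21. The windows below are shown 5′ to 3′ on the strand of the gene because they set a gene with a match that rose after TAC beside those with a match that did not pass the test and those without one that rose. Capitals mark the match, and a window with no capitals has none.
Asns, chr6:7693214-7693243, minus strand, match on the strand of the gene 23 to 16 bases before the start: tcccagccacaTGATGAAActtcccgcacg
Chac1, chr2:119350992-119351241, plus strand, match on the opposite strand 193 to 186 bases before the start: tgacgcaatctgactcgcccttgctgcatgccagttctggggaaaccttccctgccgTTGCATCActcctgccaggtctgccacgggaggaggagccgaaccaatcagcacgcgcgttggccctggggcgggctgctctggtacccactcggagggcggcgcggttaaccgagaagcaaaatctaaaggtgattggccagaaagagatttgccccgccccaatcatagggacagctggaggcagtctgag
Fgf21, chr7:45615491-45615740, minus strand, match on the opposite strand 139 to 132 bases before the start: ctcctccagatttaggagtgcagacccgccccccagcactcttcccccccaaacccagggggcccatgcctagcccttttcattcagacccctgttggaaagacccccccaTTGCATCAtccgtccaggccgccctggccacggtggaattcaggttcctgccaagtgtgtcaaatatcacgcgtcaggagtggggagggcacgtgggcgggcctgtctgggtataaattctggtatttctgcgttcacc
Gdf15, chr8:70632457-70632706, minus strand: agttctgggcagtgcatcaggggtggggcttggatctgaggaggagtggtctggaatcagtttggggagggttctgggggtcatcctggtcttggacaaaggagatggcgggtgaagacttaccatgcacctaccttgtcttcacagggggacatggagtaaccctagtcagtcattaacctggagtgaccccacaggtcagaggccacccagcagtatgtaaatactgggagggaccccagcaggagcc
Mthfd2, chr6:83317605-83317854, minus strand: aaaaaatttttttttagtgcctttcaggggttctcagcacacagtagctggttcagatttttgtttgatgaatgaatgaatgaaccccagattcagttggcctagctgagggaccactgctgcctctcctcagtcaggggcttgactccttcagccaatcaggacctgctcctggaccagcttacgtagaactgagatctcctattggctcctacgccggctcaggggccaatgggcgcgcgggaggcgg
The Asns match lies before the RefSeq start, but 45 bases of the searched window fall in exons annotated by GENCODE. Whether the match is among those bases was not recorded, so only 30 bases around it are printed. The Gdf15 window belongs to the upstream one of 2 starts, and its last 14 bases lie inside the RefSeq gene. The Mthfd2 window lies inside the annotated gene, because another transcript of Mthfd2 starts farther upstream. Chac1 and Fgf21 held the same 8 letters, TTGCATCA. No match says only that these letters are not in the window.

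Values are FPKM, a fragment count divided by transcript length and by library total, so levels of different genes can be set side by side. Differences between groups are on the log2(FPKM + 1) scale with their standard error, from 1 limma fit over the 11937 genes that reached 1 FPKM in 3 libraries or more. A gene is said to be called at a Benjamini-Hochberg adjusted p under 0.05 over all of these genes. Because 1 is added before the log, that scale understates the change of genes near 1 FPKM. The plain ratio of group means is given beside the TAC differences of Gdf15, Mthfd2, Psat1, Asns and Aldh18a1. It is also given for some of their genotype differences. For the other genes, among them Trib3 and all genes of the pathway lists below, no ratio is given. Where such genes lie near 1 FPKM, their differences cannot be ranked against those of abundant genes. Summed FPKM lay between 390453 and 432264 per library, and 11027 to 11377 genes reached 1 FPKM. Sequencing depth is unknown, so no counting interval can be given.

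Kcp, the targeted gene, was lower in the KO libraries but present in them. It lay between 0.794 and 1.43 FPKM in WT sham, between 0.985 and 1.48 in WT TAC, between 0.656 and 0.673 in KO sham and between 0.494 and 0.952 in KO TAC. KO and WT libraries did not overlap under either surgery, and the difference was not called in sham (log2 difference -0.28 ± 0.12, limma adjusted p = 0.301) or after TAC (-0.27 ± 0.10, adjusted p = 0.0843). All 5 cardiomyocyte markers exceeded 1 FPKM in every library of the model. A split into 2 sets of libraries, taken from earlier work on these data, also runs along genotype. By more than 0.5 on the log2 scale, 17 of 11952 genes split WT TAC replicate 5 and all KO libraries from the other 8. None of the 10 genes is among the 17. Other splits were not counted, so this count is no test of the split. The first principal component, with 50.9% of the variance, set WT TAC replicate 5 at -0.1 against 6.5 to 13 for the other WT TAC libraries. It set KO TAC replicate 2 at 10.1 against 22.6 to 30.1 for the other KO TAC libraries.

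Of the 10 genes, 8 met the filter on low values. Gdf15 met it through its TAC libraries alone, with 10 of 10 TAC libraries and 0 sham libraries at 1 FPKM or more, and Mthfd2 reached 1 FPKM in 0 WT sham and 2 KO sham libraries. A gene that enters in this way had to be higher after TAC. The other 6 would have met it on the sham libraries alone. Fgf21 and Phgdh did not meet it and were tested by exact permutation over samples.

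**Figure D1:**
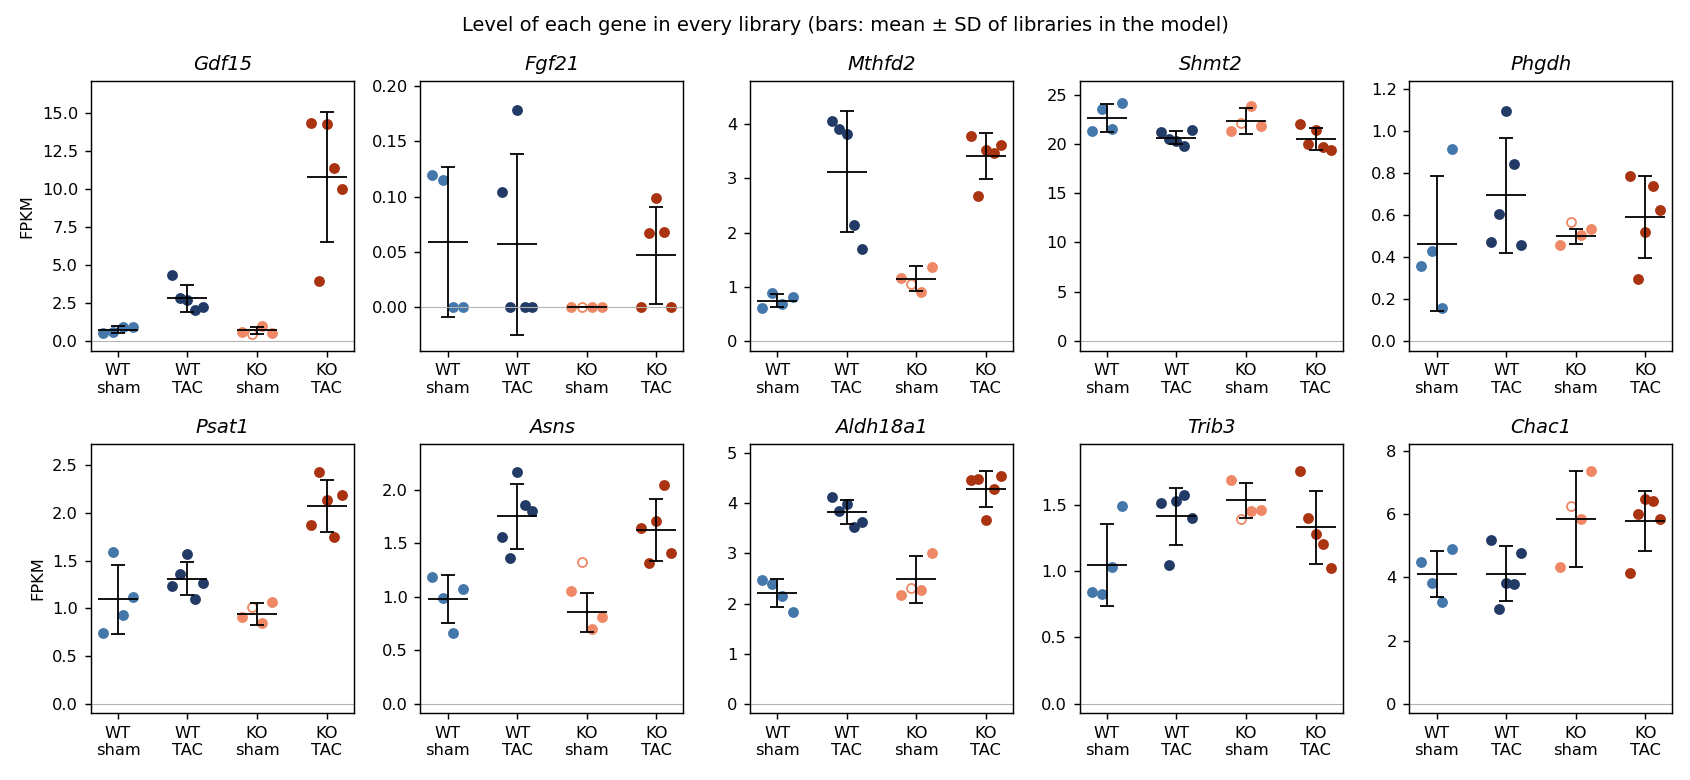
FPKM of the 10 genes in each of the 18 libraries, by group. Points are libraries, bars are the mean ± SD of the libraries in the model, and the open point is KO sham replicate 2, which was left out. Each panel has its own linear axis. Gdf15 reached 14.4 FPKM in KO TAC against at most 4.32 in WT TAC, whereas Shmt2 stayed between 19.4 and 24.1 in every library.

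Gdf15 (chromosome 8, 70629393 to 70632470 on GRCm38.p6) encodes growth differentiation factor 15, a stress hormone of the TGF-beta superfamily that acts on the hindbrain to lower food intake. In WT sham the 4 libraries had 0.520, 0.574, 0.926 and 0.938 FPKM, and in KO sham the 3 libraries had 0.592, 0.985 and 0.566 FPKM. The sham groups overlapped, and every sham library was under 1 FPKM. After TAC the WT libraries had 4.32, 2.81, 2.73, 2.05 and 2.25 FPKM, all above the highest sham library. The KO libraries after TAC had 14.4, 3.95, 14.3, 11.4 and 10.03 FPKM. All but 1 of these were above every WT TAC library, and KO TAC replicate 2, at 3.95, was below WT TAC replicate 1.

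Gdf15 rose with TAC in both genotypes. The mean went from 0.739 ± 0.223 (SD, n = 4) to 2.83 ± 0.893 FPKM (n = 5) in WT, a ratio of 3.83 (log2 difference 1.12 ± 0.26, limma adjusted p = 0.00675). In KO it went from 0.714 ± 0.235 (n = 3) to 10.8 ± 4.26 FPKM (n = 5), a ratio of 15.1 (2.69 ± 0.29, limma adjusted p = 3.62e-06). The genotypes did not differ in sham (ratio 0.966, log2 difference -0.02 ± 0.30, adjusted p = 0.984) beyond their spread. After TAC the KO mean was 3.82 times the WT mean (1.55 ± 0.25, limma adjusted p = 0.00187). With a term for the 2 sets of libraries this last difference was 1.76 ± 0.44, and the call was lost. Only WT TAC replicate 5 tells the sets from genotype, so this fit compares the KO TAC mean with that 1 library.

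Whether TAC raised Gdf15 more in KO than in WT is the genotype by TAC interaction, which was 1.57 ± 0.39 and was not called (limma adjusted p = 0.0653). The call turned on single libraries. Without KO TAC replicate 2, the low one, the interaction was 1.85 with an adjusted p of 0.000762, and without WT TAC replicate 1, the high one, it was 1.69 with 0.0472. Over all single libraries left out it lay between 1.45 and 1.85, with adjusted p from 0.000762 to 0.124.

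Macrophages are a known source of Gdf15, so their markers are given beside it. The summed FPKM of 6 macrophage markers lay between 139 and 229 in WT sham, 172 and 270 in WT TAC, 158 and 179 in KO sham, and 213 and 303 in KO TAC. Of the 6, 3 were called higher after TAC in KO (Adgre1, C1qa and Lyz2), 0 in WT and 0 between genotypes after TAC. In that last comparison all 6 were higher in KO. The differences were 0.42 for Adgre1, 0.40 for Fcgr1, 0.26 for C1qa, 0.21 for Lyz2, 0.17 for Csf1r and 0.16 for Cd68. Fcgr1 had a limma adjusted p of 0.059 and Adgre1 of 0.0613. Over all tested genes, 21.1% were called higher and 17.7% lower after TAC in KO, and 10.7% and 11.2% in WT. Between genotypes after TAC these shares were 6.53% and 4.78%. KO TAC replicate 2 had the highest macrophage sum, 303, and the lowest Gdf15 of its group. The summed FPKM of 5 fibroblast markers lay between 279 and 363 in WT sham, 311 and 511 in WT TAC, 259 and 317 in KO sham, and 392 and 490 in KO TAC. Of the 5, Col1a1, Dcn, Lum and Pdgfra were called higher after TAC in KO, and in WT Col1a1 was called higher and Tcf21 lower. Between genotypes after TAC, the comparison in which Gdf15 was called, only Col1a1 of the 5 was called, higher in KO (0.95 ± 0.22, limma adjusted p = 0.0136). The other fibroblast markers were not, with Dcn at -0.002, Pdgfra at -0.02, Lum at 0.03 and Tcf21 at 0.12. The summed cardiomyocyte markers lay between 29580 and 30400 in WT sham, 27450 and 29930 in WT TAC, 29870 and 31490 in KO sham, and 25140 and 27390 in KO TAC. Of these 5, 3 were called lower and 1 higher after TAC in WT, and 4 lower in KO. Between genotypes after TAC only Myh6 of the 5 was called, lower in KO (-0.23 ± 0.05, limma adjusted p = 0.00838). The part of these shifts in the Gdf15 values was not tested, and in bulk tissue fewer cells of a type and less RNA per cell cannot be told apart. The liver marker Alb was at 0 in every library.

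Fgf21 encodes fibroblast growth factor 21, the other hormone of the response. It was listed at 0 in 2 of 4 WT sham, 3 of 5 WT TAC, 3 of 3 KO sham and 2 of 5 KO TAC libraries, and its highest value was 0.179 FPKM, in WT TAC replicate 3. Its groups overlapped in each comparison. Exact permutation tests, 2-sided, gave p = 0.921 for TAC in WT, 0.196 for TAC in KO, 0.429 for genotype in sham and 0.762 for genotype after TAC. The smallest p these tests allow is 0.00794 for TAC in WT and 0.143 for genotype in sham, so the latter could not reach 0.05. A change of Fgf21 was not detectable at these levels.

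Mthfd2 (chromosome 6, 83305704 to 83326011) encodes a mitochondrial folate enzyme that oxidises the carbon unit released from serine on its way to formate. The WT sham libraries had 0.615, 0.891, 0.677 and 0.809 FPKM, and the WT TAC libraries had 4.06, 3.91, 3.82, 2.15 and 1.69 FPKM. The 2 lowest WT TAC libraries, replicates 4 and 5, were still above every sham library. The KO sham libraries had 1.17, 0.907 and 1.37 FPKM, and the KO TAC libraries had 3.77, 2.68, 3.52, 3.48 and 3.61 FPKM. TAC raised Mthfd2 by a ratio of 4.18 in WT (log2 difference 1.19 ± 0.16, limma adjusted p = 7.56e-05) and of 2.97 in KO (1.04 ± 0.17, adjusted p = 0.000141). In sham every KO library was above every WT library, with a ratio of 1.53, but the difference was not called (0.29 ± 0.18, adjusted p = 0.502). After TAC the genotypes overlapped (0.14, adjusted p = 0.607).

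Shmt2, the mitochondrial serine hydroxymethyltransferase that feeds Mthfd2, was the most abundant of the 10 genes. Its mean was 22.6 ± 1.41 FPKM in WT sham, 20.6 ± 0.688 in WT TAC, 22.3 ± 1.34 in KO sham and 20.5 ± 1.15 in KO TAC. No difference was called, with -0.13 ± 0.05 for TAC in WT (limma adjusted p = 0.11) and -0.12 ± 0.06 in KO (adjusted p = 0.129). The WT TAC libraries ranged from 19.7 to 21.4 FPKM and the WT sham libraries from 21.3 to 24.1. In WT sham the mean was thus 22.6 FPKM for Shmt2 and 0.748 for Mthfd2, of the next step. Mthfd2l, the paralog of Mthfd2, had a mean of 2.49 FPKM there. Shmt2 overlaps Ndufa4l2, and Aldh18a1 overlaps the gene model Gm15801. Whether reads were counted by strand is not given, so reads of such pairs may not be separated.

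Phgdh and Psat1 encode the first and the second enzyme of serine synthesis from glucose. Phgdh was low in every group, from 0.158 to 0.912 FPKM in WT sham, 0.458 to 1.10 in WT TAC, 0.457 to 0.531 in KO sham and 0.298 to 0.785 in KO TAC. All these ranges overlapped, and the exact permutation p was 0.23 for TAC in WT, 0.464 for TAC in KO, 0.686 for genotype in sham and 0.54 for genotype after TAC. Psat1 was higher and separated the genotypes after TAC. Its WT sham libraries had 0.738, 1.59, 0.930 and 1.12 FPKM and its WT TAC libraries 1.24, 1.36, 1.57, 1.10 and 1.27 FPKM, which overlapped. Its KO sham libraries had 0.907, 0.850 and 1.07 FPKM and its KO TAC libraries 1.87, 2.43, 2.13, 1.74 and 2.18 FPKM. Every KO TAC library was above every library of the other groups.

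Psat1 (chromosome 19, 15905123 to 15925059) rose with TAC in KO by a ratio of 2.2 (log2 difference 0.66 ± 0.11, limma adjusted p = 0.000188) and was not called in WT (ratio 1.2, 0.15 ± 0.10, adjusted p = 0.316). After TAC it was 1.58 times as high in KO as in WT (0.41 ± 0.10, limma adjusted p = 0.0139). The interaction, which tests whether the TAC effect differed between genotypes, was 0.51 ± 0.15 and was not called (adjusted p = 0.0964). With a term for the sets of libraries, which again compares KO TAC with WT TAC replicate 5 alone, the difference was 0.43 ± 0.17 and was not called. The KO TAC library lowest for Gdf15, replicate 2, was the highest for Psat1.

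Asns (chromosome 6, 7675165 to 7693209) encodes asparagine synthetase, which makes asparagine from aspartate and carries the motif close to its start. Its libraries had 1.19, 0.993, 0.663 and 1.08 FPKM in WT sham and 1.56, 1.37, 2.17, 1.86 and 1.80 FPKM in WT TAC. In KO they had 1.058, 0.699 and 0.815 FPKM in sham and 1.64, 1.32, 1.71, 2.05 and 1.41 FPKM after TAC. Sham and TAC libraries did not overlap in either genotype. The rise was 1.79-fold in WT (log2 difference 0.48 ± 0.11, limma adjusted p = 0.00435) and 1.89-fold in KO (0.50 ± 0.12, adjusted p = 0.00261), and the genotypes overlapped under each surgery. KO sham replicate 2, outside the fit, had 1.33 FPKM, which is above the lowest KO TAC library.

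Aldh18a1 (chromosome 19, 40550257 to 40588463) encodes the synthase that commits glutamate to proline and ornithine. It had 2.48, 2.39, 2.15 and 1.84 FPKM in WT sham, 4.13, 3.85, 3.99, 3.53 and 3.63 in WT TAC, 2.17, 2.27 and 3.02 in KO sham, and 4.46, 4.49, 3.67, 4.28 and 4.54 in KO TAC. Every TAC library was above every sham library. The ratio of means was 1.73 in both genotypes (WT 0.59 ± 0.08, limma adjusted p = 0.000121, KO 0.61 ± 0.09, adjusted p = 4.76e-05). No genotype difference was called in sham or after TAC (0.13, adjusted p = 0.306).

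Trib3 encodes a pseudokinase that feeds back on ATF4, and Chac1 an enzyme that degrades glutathione. Trib3 had means of 1.05 ± 0.309 FPKM in WT sham, 1.41 ± 0.214 in WT TAC, 1.53 ± 0.133 in KO sham and 1.33 ± 0.275 in KO TAC. Its TAC difference was 0.24 ± 0.11 in WT (limma adjusted p = 0.114) and -0.13 ± 0.12 in KO (adjusted p = 0.415). The call in WT turned on 1 sham library: without WT sham replicate 4, which had 1.49 FPKM against 0.8291 to 1.03 for the others, the difference was 0.34 with an adjusted p of 0.0327, and over all single libraries left out it lay between 0.19 and 0.34. Chac1 had means of 4.10 ± 0.741 FPKM in WT sham, 4.11 ± 0.87 in WT TAC, 5.85 ± 1.52 in KO sham and 5.78 ± 0.951 in KO TAC. Its TAC differences were near 0, with adjusted p of 0.989 in WT and 0.991 in KO. The KO means were higher under both surgeries, by 0.41 ± 0.17 in sham (adjusted p = 0.283) and 0.41 ± 0.14 after TAC (adjusted p = 0.0677). Neither was called, and the latter was called without WT TAC replicate 1 (0.49, adjusted p = 0.0431) or without KO TAC replicate 1 (0.51, adjusted p = 0.0394).

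**Figure D2:**
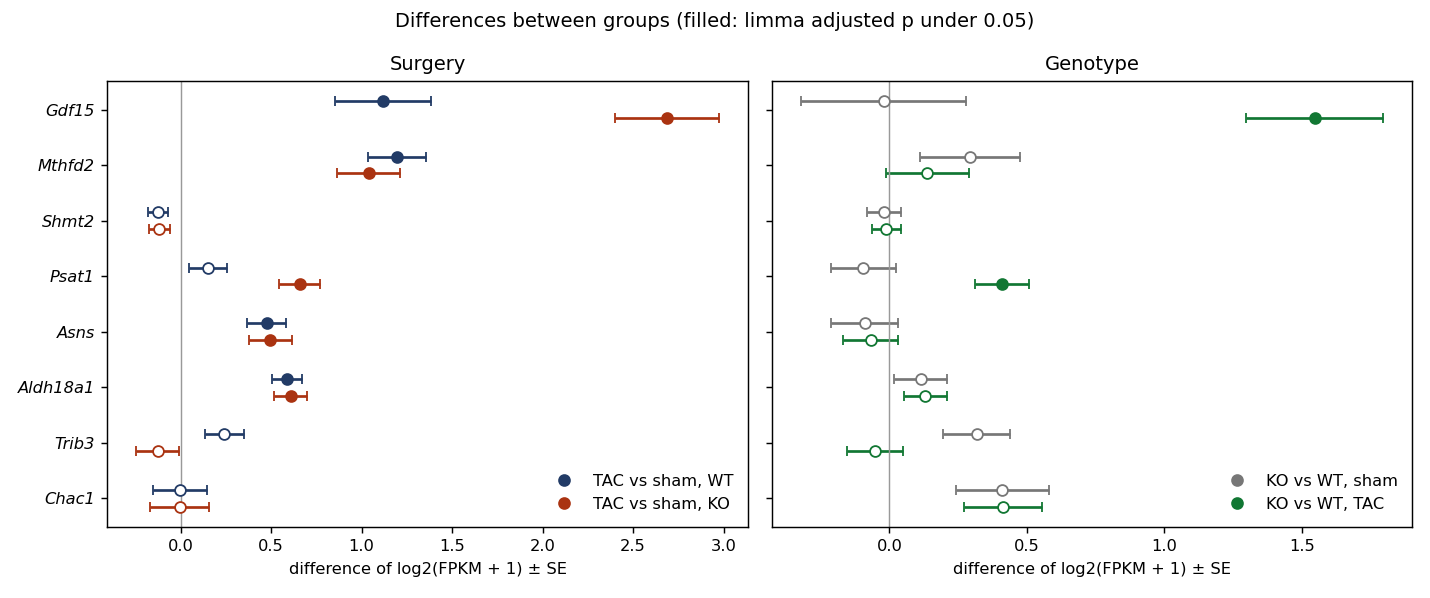
Differences between groups for the 8 tested genes, as differences of log2(FPKM + 1) with the standard error of the limma fit. The left panel has TAC against sham in each genotype and the right panel KO against WT under each surgery. Filled points have an adjusted p under 0.05. Gdf15 lies at 1.12 in WT and 2.69 in KO on the left, and Gdf15 and Psat1 are the only filled points on the right.

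Counted over the 8 tested genes, TAC raised 4 in WT (Gdf15, Mthfd2, Asns and Aldh18a1) and lowered 0, where 10.7% of all tested genes were called higher. In KO it raised the same 4 and Psat1, 5 in all, and lowered 0, against 21.1% of all tested genes called higher. The median log2 difference of the 8 was 0.359 in WT and 0.552 in KO, and over all tested genes it was -0.01 and 0.01. Because Gdf15 and Mthfd2 passed the filter through libraries in which they are high, these counts describe the 8 and support nothing further. Between genotypes in sham limma called 0 of the 8, against 1.26% of all tested genes in either direction. After TAC it called 2 higher in KO (Gdf15 and Psat1), against 6.53% of all tested genes. For the interaction it called 0, against 0.93% in either direction. The libraries did not overlap and were higher for 4 of the 8 after TAC in WT, 5 after TAC in KO, 1 in KO sham (Mthfd2) and 1 in KO TAC (Psat1). Over all tested genes these shares were 10.5%, 19.8%, 7.27% and 3.83%. At an unadjusted p under 0.05, 1694 genes in all differed between genotypes in sham, and 2245 for the interaction.

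In WT sham the order of the means was Shmt2 (22.6 FPKM), Chac1 (4.10), Aldh18a1 (2.21), Psat1 (1.09), Trib3 (1.05), Asns (0.980), Mthfd2 (0.748), Gdf15 (0.739), Phgdh (0.464) and Fgf21 (0.0588). The libraries of Psat1, Trib3, Asns, Mthfd2, Gdf15 and Phgdh overlapped from each gene to the next, so that part of the order is not resolved. In KO TAC Gdf15, at 10.8 FPKM, stood next to Shmt2 at 20.5, followed by Chac1 (5.78), Aldh18a1 (4.29), Mthfd2 (3.41), Psat1 (2.07), Asns (1.63), Trib3 (1.33) and Phgdh (0.592). The Gdf15 libraries, from 3.95 to 14.4 FPKM, overlapped those of Chac1 and Aldh18a1 there. Chac1 overlapped Aldh18a1, Aldh18a1 overlapped Mthfd2, Psat1 overlapped Asns, and Asns overlapped Trib3. The order within these runs is not resolved.

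Within groups the genes did not vary as 1 block. Over the 28 pairs of the 8 tested genes, Pearson's r of the deviations from the group means over 17 libraries lay between -0.378 (Trib3 with Aldh18a1) and 0.497 (Gdf15 with Mthfd2). These points share the library and its scaling, and r is a description. Gdf15 with Psat1 had r = -0.301. The 5 named genes whose deviations were most like those of Gdf15, of 11153 compared, were Ehd4 (0.899), Pdgfc (0.858), Hif1a (0.845), Rpl11 (0.839) and Cd55 (0.831). Without KO TAC replicate 2 these 5 values fell to between 0.685 and 0.78. Ehd4, an endocytic recycling protein, had 318, 205, 281, 271 and 293 FPKM in KO TAC replicates 1 to 5, and Hif1a, the hypoxia-response factor, had 31.5, 18.6, 27.6, 25.6 and 22.3. Within KO TAC all 5 genes were lowest in replicate 2, as Gdf15 was. They were picked for their likeness to Gdf15, so this shared low library comes with the selection and is no separate result. Ehd4 was called higher after TAC in KO (0.82 ± 0.10, limma adjusted p = 6.35e-06), as were Hif1a (0.64 ± 0.11, adjusted p = 0.000252) and Cd55 (0.61, adjusted p = 0.0277). Pdgfc and Rpl11 were not. Pdgfc reached 1 FPKM in 4 KO TAC libraries and in 0 of the other groups, so it met the filter only through the group where it is high. After TAC Ehd4, Hif1a and Pdgfc were called higher in KO than in WT (limma adjusted p = 0.00527, 0.00583 and 0.0389). Cd55 and Rpl11 were not called there.

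The rest of the pathway was described with 10 lists of its genes. A call in 1 genotype only is no test of a difference between them, and the interaction was called for 2 of the 101 tested list genes, Eif4ebp1 and Hspd1. Among 9 genes upstream, the eIF2 kinases Eif2ak1, Eif2ak2, Eif2ak3 and Eif2ak4, the eIF2 subunit Eif2s1 and the phosphatase subunit Ppp1r15b were called in neither genotype. Ppp1r15a, the inducible phosphatase subunit that turns the response off, rose in KO (0.99, limma adjusted p = 0.000378) and had 0.44 in WT (adjusted p = 0.066). Dele1, which relays mitochondrial stress to the kinase encoded by Eif2ak1, fell in WT (-0.29, adjusted p = 0.00606) and in KO (-0.55, adjusted p = 2.14e-05). Oma1, the protease that cuts DELE1, fell in KO (-0.43, adjusted p = 0.012). The counts were 0 higher and 1 lower of 9 in WT, and 1 higher and 2 lower in KO. Lower calls made up 11.2% of all tested genes in WT and 17.7% in KO.

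Of the 7 transcription factors of the response, 6 rose in WT and 5 in KO, with medians of 0.51 and 0.58. Higher calls made up 10.7% of all tested genes in WT and 21.1% in KO. Atf4 itself went from 46.2 ± 2.45 to 66.6 ± 6.44 FPKM in WT (0.51 ± 0.08, limma adjusted p = 0.000177) and from 42.2 ± 4.40 to 64.4 ± 5.40 FPKM in KO (0.60 ± 0.08, adjusted p = 2.28e-05). Atf5 rose by 0.50 and 0.58. Nupr1, a stress-induced chromatin protein, rose by 1.62 ± 0.28 in WT (adjusted p = 0.000993) and 1.97 ± 0.31 in KO (adjusted p = 0.00013). Atf3 rose by 1.45 ± 0.49 in WT (adjusted p = 0.0451) and 2.36 ± 0.53 in KO (adjusted p = 0.0026), with 34.0 ± 29.5 FPKM in KO TAC. Cebpg rose by 0.23 and 0.25. Ddit3, which encodes CHOP, rose in WT (0.54 ± 0.12, adjusted p = 0.00428) and had 0.23 ± 0.13 in KO (adjusted p = 0.176). The interaction for Ddit3 was -0.31 ± 0.18 (adjusted p = 0.369). Cebpb was called in neither, with 0.45 in WT (adjusted p = 0.155) and 0.26 in KO (adjusted p = 0.42). None of the 7 was called between genotypes after TAC, where Gdf15 and Psat1 were.

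**Figure D3:**
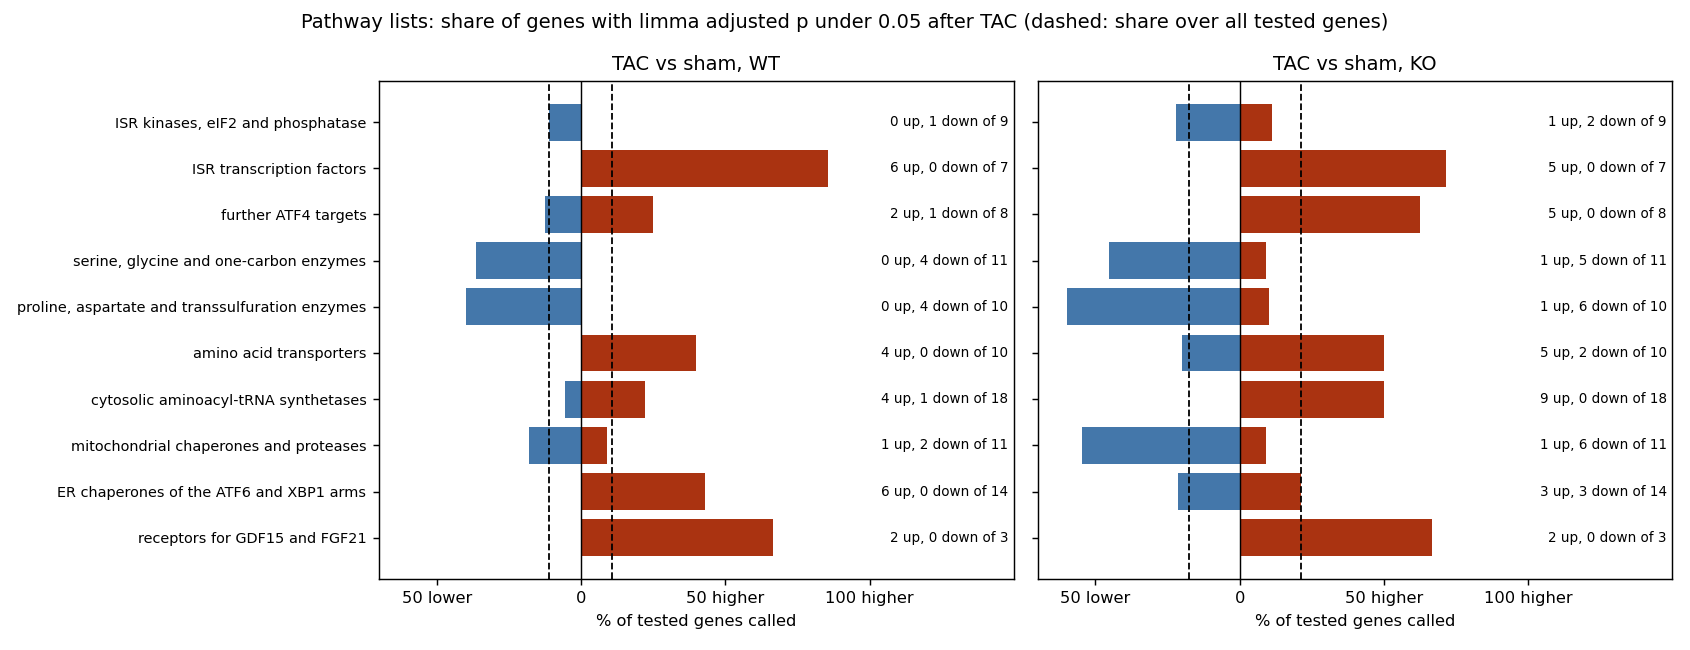
Percent of the tested genes of each pathway list that had a limma adjusted p under 0.05 after TAC, higher to the right and lower to the left, in WT and KO. Dashed lines mark the share over all tested genes, 10.7% higher and 11.2% lower in WT, and 21.1% higher and 17.7% lower in KO. The transcription factors, with 6 of 7 and 5 of 7 higher, reach farthest to the right, and the enzymes of proline, aspartate and sulfur amino acids reach farthest to the left.

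Around Mthfd2, Shmt2, Phgdh and Psat1, the calls among other enzymes of serine, glycine and folate metabolism were mostly falls. Of 11 tested, 0 rose and 4 fell in WT, and 1 rose and 5 fell in KO, with medians of -0.17 and -0.20. The shares over all tested genes were 10.7% higher and 11.2% lower in WT, and 21.1% and 17.7% in KO. Aldh1l2, the mitochondrial enzyme that oxidises the same folate units to carbon dioxide, fell by 0.64 ± 0.11 in WT (limma adjusted p = 0.000804) and by 0.93 ± 0.12 in KO (adjusted p = 1.58e-05). Its mean went from 2.075 to 0.982 FPKM in WT and from 2.024 to 0.566 in KO. Aldh1l2 reached 1 FPKM in 7 sham and 2 TAC libraries, so it met the filter only through the sham libraries. It is high there, and it is in both counts of falls. Gcat, which turns a product of threonine into glycine, fell by 0.67 (adjusted p = 4.55e-05) and 1.05 (adjusted p = 2.88e-07), and was lower in KO than in WT after TAC (-0.35, adjusted p = 0.00965). Mthfd2l, the paralog of Mthfd2, fell by 0.30 in WT and 0.29 in KO. Gart, of purine synthesis, fell by 0.23 and 0.24. Shmt1, the cytosolic counterpart of Shmt2, rose in KO (0.36, adjusted p = 0.0389). Psph, which completes serine synthesis after Psat1, was not called. Tyms and Gldc did not meet the filter.

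Around Aldh18a1 and Asns, 0 of 10 tested enzymes rose and 4 fell in WT, and 1 rose and 6 fell in KO, with medians of -0.16 and -0.32. Among all tested genes 10.7% were called higher and 11.2% lower in WT, and 21.1% and 17.7% in KO. The falls include Cth, of cysteine synthesis, which met the filter only through its sham libraries, with 5 at 1 FPKM or more against 0 after TAC. Pycr1 and Pycrl, which encode enzymes that act after Aldh18a1, were called in neither genotype. Prodh, which degrades proline, fell by 0.52 ± 0.13 in WT (limma adjusted p = 0.00637) and by 1.16 ± 0.14 in KO (adjusted p = 5.21e-06), and was lower in KO than in WT after TAC (-0.46, adjusted p = 0.0207). Gpt2, the mitochondrial alanine transaminase, fell by 0.50 and 0.90, and Got2, the mitochondrial aspartate transaminase, by 0.21 and 0.35. Oat, which links ornithine to proline, was lower in KO than in WT after TAC (-0.27, adjusted p = 0.00401).

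**Figure D4:**
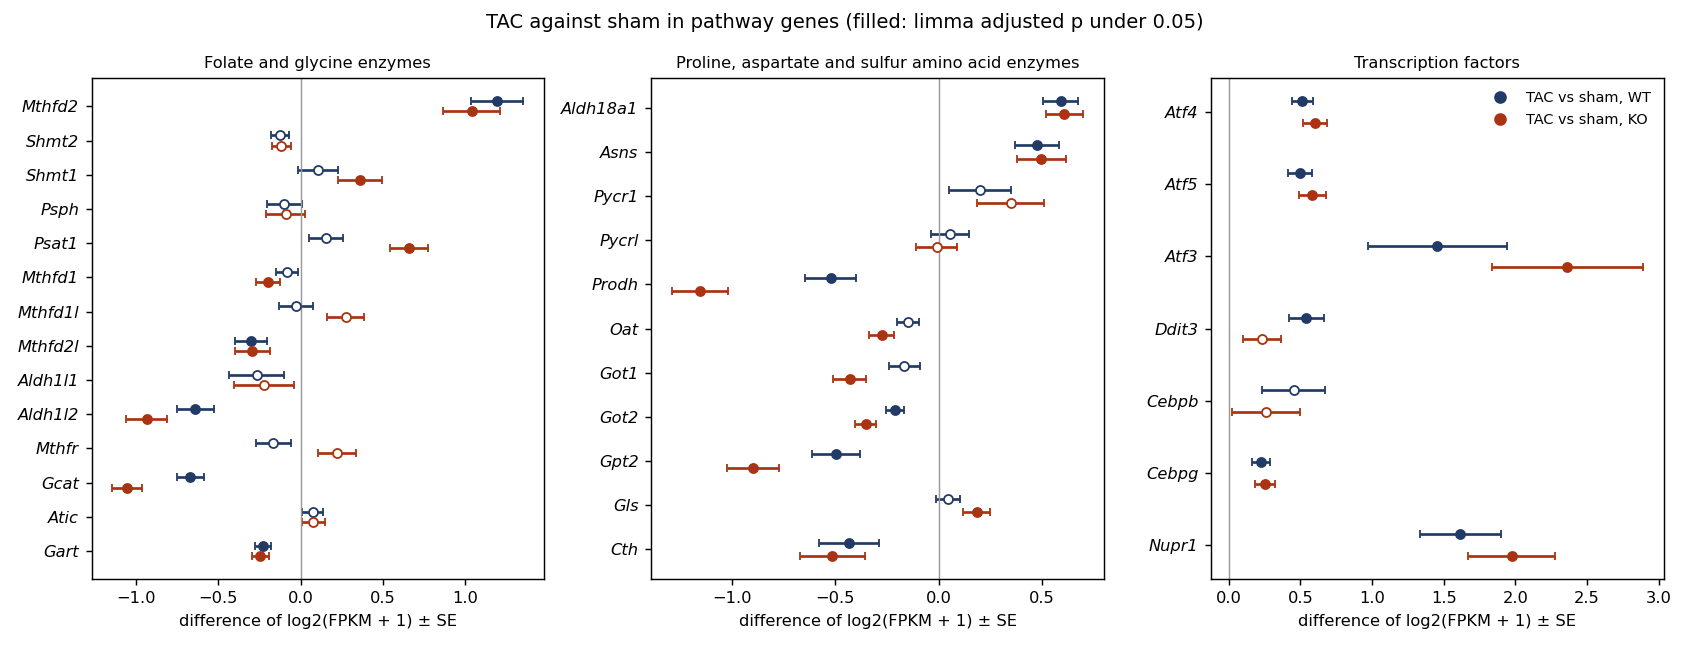
TAC against sham in WT and KO for enzymes of folate and glycine metabolism, enzymes of proline, aspartate and sulfur amino acid metabolism, and the transcription factors, as differences of log2(FPKM + 1) with standard errors. Filled points have a limma adjusted p under 0.05. Mthfd2, Aldh18a1 and Asns lie to the right of 0 in both genotypes, and Aldh1l2, Gcat, Prodh and Gpt2 to the left.

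Amino acid transporters rose in 4 of 10 cases in WT and 5 of 10 in KO, with 0 and 2 that fell and medians of 0.12 and 0.26. For this list and the next, the shares over all tested genes were 10.7% higher and 11.2% lower in WT. In KO they were 21.1% and 17.7%. Slc38a2, a glutamine and alanine carrier, rose by 0.93 in WT (limma adjusted p = 0.00354) and 1.22 in KO (adjusted p = 0.000328). The subunits of the leucine exchanger also rose, Slc7a5 by 0.49 and 0.97 and Slc3a2 by 0.38 and 0.52. The mean of Slc7a5 went from 1.487 to 2.444 FPKM in WT and from 1.028 to 2.995 in KO. Slc1a4, a serine and alanine carrier, rose by 0.35 and 0.71, and Slc6a9 was one of those that fell in KO. The mean of Slc1a4 went from 0.466 to 0.876 FPKM in WT and from 0.389 to 1.297 in KO. Slc1a4 reached 1 FPKM in 0 sham and 5 TAC libraries and Slc6a9 in 4 sham and 0 TAC libraries, so both met the filter only through the surgery in which they are high, and the counts include them. Of 18 cytosolic aminoacyl-tRNA synthetases, 4 rose and 1 fell in WT, and 9 rose and 0 fell in KO, with medians of 0.11 and 0.19. Nars, which charges tRNA with asparagine, rose by 0.27 (adjusted p = 0.00236) and 0.37 (adjusted p = 0.000106), and Cars and Yars rose in both genotypes. Aars, for alanine, was the only synthetase called between genotypes after TAC (0.22, adjusted p = 0.019).

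Of 8 further genes listed as ATF4 targets, 2 rose and 1 fell in WT, and 5 rose and 0 fell in KO. All tested genes had 10.7% called higher and 11.2% lower in WT, and 21.1% and 17.7% in KO. Those that rose in both genotypes were Cdkn1a, the cell cycle inhibitor p21, by 1.65 in WT and 2.23 in KO, and Vegfa, an angiogenic growth factor, by 0.58 and 0.36. Vldlr, a lipoprotein receptor, was the one that fell in WT. Eif4ebp1, a brake on cap-dependent translation, rose in KO (0.46, limma adjusted p = 0.000243) and was higher in KO than in WT after TAC (0.36, adjusted p = 0.00445). It was the one gene of this list called for the interaction (0.50 ± 0.11, adjusted p = 0.0375). Ndrg1 was higher in KO than in WT after TAC (0.48, adjusted p = 0.0136).

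Chaperones were listed as markers of neighbouring stress routes. Of 11 mitochondrial chaperones and proteases, 1 rose and 2 fell in WT, and 1 rose and 6 fell in KO, with medians of -0.06 and -0.29. Hspd1, the mitochondrial chaperonin, fell in KO (-0.51, limma adjusted p = 0.000493), and its interaction was called (-0.62, adjusted p = 0.0364). Clpx and Clpp, the subunits of a matrix protease, fell in KO by 0.48 (adjusted p = 5.37e-05) and 0.39 (adjusted p = 0.000506). Hspd1 and Clpx were also lower in KO than in WT after TAC. Of 14 endoplasmic reticulum chaperones and their regulators, 6 rose and 0 fell in WT, and 3 rose and 3 fell in KO, with medians of 0.18 and 0.06. Over all tested genes, 10.7% were called higher and 11.2% lower in WT, and 21.1% and 17.7% in KO. The endoplasmic reticulum counts in KO were close to these shares, and so was the count of mitochondrial genes that rose in WT. The interaction was called for 0 of the 14, with the smallest adjusted p, 0.0903, for Creld2. Creld2 rose in WT by 0.59, Manf by 0.46 and Pdia4 by 0.43. After TAC 6 of the 14 were lower in KO than in WT (Hspa5, Creld2, Manf, Hyou1, Xbp1 and Dnajb9), against 4.78% of all tested genes, with Hspa5 at -0.26 (adjusted p = 0.00527).

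Among the receptors, Gfral, the receptor of GDF15 known from the hindbrain, was listed at 0 in every library of the model. Klb, the FGF21 coreceptor, with Fgfr2 and Fgfr4 did not meet the filter. Ret, the coreceptor of GFRAL, was lower in KO than in WT after TAC (-0.34, limma adjusted p = 0.0307). Fgfr1 rose by 0.31 (adjusted p = 0.0431) in WT and 0.57 (adjusted p = 0.000659) in KO, and Fgfr3 by 0.51 and 0.61. In sham 0 genes of the 10 lists were called between genotypes by limma. After TAC 15 of 101 tested were, or 14.9%, against 11.3% of all tested genes in either direction. With a term for the sets of libraries 1 of the 15, Eif4ebp1, was still called (0.49 ± 0.12, adjusted p = 0.04), while all 15 kept their sign. Genotype and the sets of libraries can be told apart only through WT TAC replicate 5. The fit with that term thus compares KO TAC with this 1 library.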

How the data were processed

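Heart RNA extracted with an RNeasy kit was made into 18 libraries with a SMARTER mRNA kit, per the labels' protocols. The authors deposited 1 table of 34714 genes by 18 libraries. Its unit is not named, and the deposited values were taken as FPKM: they were not whole, and their totals, with a coefficient of variation of 2.72%, varied by 1.78% once multiplied by transcript length (25731 genes with a length). RPKM cannot be told from FPKM here. The build is mm10, per the submitters' processing notes, and the sources used here name neither the aligner nor the counter. Every gene name matched a RefSeq symbol of GRCm38.p6, from which coordinates and sequences come.

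Since the table held FPKM and not counts, limma 3.58.1 in R 4.3.3 (trend and robust moderation) was fitted to log2(FPKM + 1) of genes that reached 1 FPKM in 3 libraries or more, with 4 group means, 17 libraries and Benjamini-Hochberg adjustment over 11937 genes at 0.05. There were 5 contrasts: TAC in each genotype, genotype under each surgery, and the interaction. Genes under the filter had 2-sided exact permutation tests. Tested on simulated data, the fit recovered 193 of 200 genes given a log2 change of 1 for TAC in WT, over 11937 genes. It also called 9 unchanged genes. The simulated libraries were independent, with no other group difference and no library sets, and smaller changes were not simulated. The simulation thus checks the code and not how well the fit suits these data.

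All 10 genes are reported, and Kcp. From each list up to 3 genes with the smallest adjusted p in a TAC contrast are named, plus any called between genotypes, all of the few kinases and transcription factors, and the 5 genes most like Gdf15. Mthfd2l, Shmt1, Psph, Slc38a2, Slc6a9, Cth, Vldlr, Pycr1, Pycrl and list genes under the filter were named after their values were seen. Some list genes are not reported here. The genes, the lists and the tests were chosen with earlier results of these data known. Alternatives were all 18 libraries, a replicate block, a pseudocount of 0.1, no filter, median-ratio scaling, a fit of only the 2 groups compared, a term for library sets, leaving out the 2 TAC libraries nearest to sham, limma without trend and robust moderation, and each library left out in turn. The likeness to Gdf15 without KO TAC replicate 2 was added after seeing the data.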

Additional observations from a re-analysis of the deposited data

Results flagged for a closer look

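Among 30 groups of 4 or 5 libraries, 2 held a library far from the rest of its group by Dixon's criterion, where chance gives about 1 in 20. Mthfd2 in KO TAC replicate 2 had 2.679 FPKM, and the gap to the next library was 0.729 of the whole range, against a critical value of 0.71. Chac1 in KO TAC replicate 1 had 4.145 FPKM, with a gap of 0.731 of the range.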

How the results depend on the processing

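Of 1030 values of single genes under the alternatives, 1020 kept their side of the threshold, 8 passed it and 2 lost it. The 2 lost were Gdf15 and Psat1 between genotypes after TAC with a term for the library sets, which left 0 of the 10 genes called higher there. The fit with that term compares KO TAC with WT TAC replicate 5 alone. A sign change occurred in 58 values, in none of which either value was called.

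For genotype in sham, 151 genes were called, 227 with all 18 libraries and 12 with the set term (50 to 169 with single libraries left out). For genotype after TAC, 1350 were called, 814 with only the 2 groups in the fit and 243 with the set term (663 to 1833), with 2 to 3 of the 10 genes higher. There 57.7% of the calls were higher, and 46.5% with median-ratio scaling. For the interaction, 111 were called, 300 with all 18 libraries, 16 with no filter, 199 with median-ratio scaling, 17 with the set term and 460 without the 2 TAC libraries nearest to sham (7 to 597). With median-ratio scaling 26.6% of those calls were higher, against 40.5%. Of the 10 genes 0 were called for it, and 1, Gdf15, with all 18 libraries (1.63, limma adjusted p = 0.0311) and without the 2 TAC libraries (1.80, adjusted p = 0.00108), with 0 to 1 over single libraries left out. TAC called 1981 to 2748 genes in WT, with 4 to 5 of the 10 higher, and 3720 to 4724 in KO, with 5 in each case. The causes were not tested.

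No label says that the replicate numbers pair the samples. Deviations from the group means of same-numbered libraries had r from -0.24 to 0.16. Libraries with different numbers were not compared in this way, so these values do not settle the pairing. With the number as a replicate block 345 genes were called for the interaction, and 1 of the 10 genes, Gdf15 (1.71, limma adjusted p = 0.0341). Depth is unknown, and Fgf21 and Phgdh lie too low for the model.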
